A study of Mus musculus with 5 samples.

Results

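The clustered protocadherin genes were examined as 1 stretch of mouse chromosome 18, from 37050001 to 38020000 on build mm9 (970 kb). The members were all called islands that touched this span by 1 bp or more, 65 of the 73415 islands in 4 lists, and their choice used position alone. Chromatin immunoprecipitation with sequencing (ChIP-seq) had mapped H3K9me3 and H3K36me3, histone H3 trimethylated at lysine 9 and at lysine 36. The cells were wild-type TBV2 mouse embryonic stem cells of strain 129/SvP, grown with leukemia inhibitory factor and without non essential aminoacids. They were seeded sparsely on gelatin without feeders and kept for 5 days either untreated (ESCs) or with 500 µM L-proline (L-proline-induced cells, PiCs). Each mark and condition had 1 library, so no difference between conditions had a replicate check and no test was made.

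Clustered protocadherins are cadherin-like cell surface proteins best known from neurons, where each cell uses a small and variable choice of them and so gains an identity that lets its branches avoid each other. In the alpha and gamma clusters many variable exons, each with its own promoter, are spliced to shared constant exons at the downstream end, whereas each beta gene is complete in itself. The H3K9 methyltransferase SETDB1 and the DNA methyltransferase DNMT3B are known to act on these promoters. H3K9me3 is typical of silenced chromatin, and H3K36me3 of the bodies of transcribed genes.

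The RefSeq gene table at hand, of assembly GRCm38.p6, lists 58 clustered protocadherin genes in this order: 14 of the alpha cluster from Pcdha1 to Pcdhac2, 22 of the beta cluster from Pcdhb1 to Pcdhb22, and 22 of the gamma cluster from Pcdhga1 to Pcdhgc5. The cluster edges used here are rounded positions on mm9, with alpha from 37090001 to 37350000, beta from 37420001 to 37660000 and gamma from 37670001 to 38000000. They could not be compared with gene positions, since no gene annotation of mm9 was used here, and no island is given to a single gene or exon. The same table lists Slc25a2 and Taf7, which are no protocadherins, between Pcdhb22 and Pcdhga1. The edges leave 10 kb between beta and gamma, and in that table the gamma cluster is shorter than the stretch called gamma here. Whether this stretch also holds those genes or the end of the beta cluster was not tested. Its values are therefore also given apart before and after its first H3K36me3 island, a split chosen after the values were seen.

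The 4 lists held 12280 to 25867 islands, of which 337 to 904 lay on chromosome 18, and the tags in islands summed to 1511058 in the shallowest list (H3K9me3 in ESCs) and 26055650 in the deepest (H3K36me3 in ESCs). Tag counts are not scaled between lists. Each is therefore also given relative to the median tags per kb of its own list, which was 25.5 for H3K9me3 in ESCs, 33 in PiCs, and 71.3 and 48.9 for H3K36me3. The depth of the libraries is unknown and the input library was not analysed here, so what these islands would hold without an antibody was not tested.

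The protocadherin span was among the stretches of chromosome 18 richest in H3K9me3, in both conditions, while its H3K36me3 was close to the middle of the range. H3K9me3 islands numbered 24 in ESCs and 28 in PiCs. They covered 7.71% of the span in ESCs and 12.2% in PiCs, against medians of 1.29% and 2.49% over 84 other 1 Mb windows of the chromosome. In ESCs 82 of these windows had a lower share and 2 a higher one, and in PiCs 79 had a lower share and 5 a higher one. Part of the coverage lay outside the 3 clusters. Of 74.8 kb covered in ESCs, 9 kb lay before alpha and 18.6 kb between alpha and beta. Of 118.2 kb covered in PiCs, these were 19.8 and 21.4 kb. Counted per Mb, the 24.7 islands of ESCs exceeded all 84 windows, the highest of which held 23, and the 28.9 of PiCs exceeded 80 of them. H3K36me3 covered 4.93% in ESCs and 5.57% in PiCs, more than in 43 and 47 of the 84 windows.

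**Figure D1:**
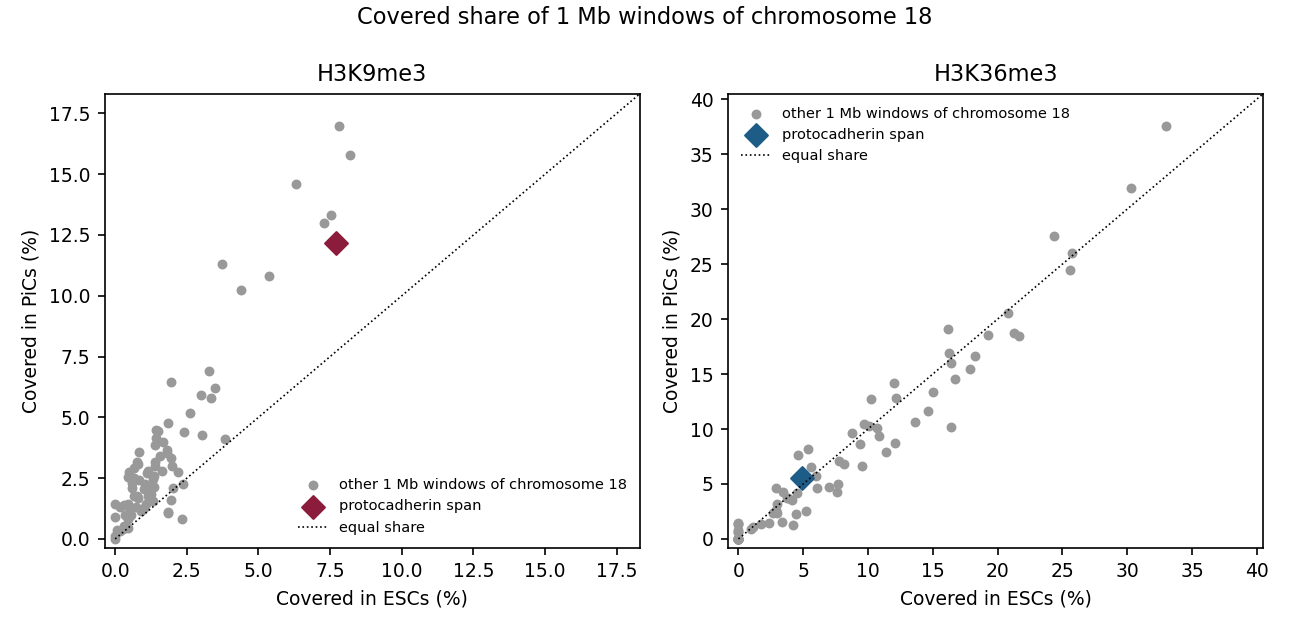
Each grey point is a 1 Mb window of chromosome 18, placed by the percent of its length under islands in ESCs (horizontal axis) and PiCs (vertical axis), for H3K9me3 on the left and H3K36me3 on the right. The diamond is the protocadherin span, at 7.71% and 12.2% for H3K9me3 and at 4.93% and 5.57% for H3K36me3, and the dotted line marks equal shares.

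The ratio of PiC to ESC H3K9me3 in the span was below that of most other windows. The covered share was 1.58 times that of ESCs, which is past the fold of 1.5 used to count differences. It was under that fold with lists of equal size (1.40) and from the start of alpha to the end of gamma alone (1.495). Of the 80 other windows covered in both conditions, 80.0% were 1.5 times or more higher in PiCs and 3.75% were as much lower. The median ratio was 2.02, and 62 of the 80 windows had a larger ratio than the span. In island number the ratio was 1.17 (95% interval 0.652 to 2.10, counting error only). Tags in the span came to 2.06 per kb in ESCs and 4.51 in PiCs, or 132.5 and 124.5 of every 100000 tags of the list. For H3K36me3 the ratio of covered shares was 1.13, with a window median of 0.917. It was above the ratio of 49 of 59 windows and below that of 10, but with lists of equal size it was 0.954. Of these windows 5.08% were 1.5 times or more higher in PiCs and 13.6% as much lower.

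The 3 clusters differed in where the islands of the 2 conditions lay. H3K9me3 covered 10.8% of alpha in ESCs and 11.5% in PiCs, 1.67% and 8.42% of beta, and 4.55% and 8.18% of gamma. The PiC to ESC ratios were thus 1.06, 5.05 and 1.8, so that beta and gamma were past the fold of 1.5 and alpha was not. Among 1 Mb windows 80.0% were past it, and their median of 2.02 was above the ratio of gamma. These windows are longer than the clusters, and ratios of windows of cluster length were not computed. The ratio of beta rests on 2 ESC islands covering 4 kb. With lists of equal size gamma was under the fold (1.45) and alpha turned to 0.787, while beta was at 4.95. Windows of the length of each cluster had medians of 1% to 1.03% in ESCs and 2% to 2.17% in PiCs. Alpha in ESCs lay above 326 of 332 such windows, beta above 236 of 360 and gamma above 240 of 261. With L-proline these numbers were 310 for alpha, 320 for beta and 233 for gamma. H3K36me3 islands were absent from both lists over alpha and beta, and gamma carried all that the clusters had. Such absence was the more common state: of chromosome 18 windows as long as alpha 36.1% held H3K36me3 in ESCs and 39.8% in PiCs, and of those as long as beta 35.3% and 39.4%.

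**Figure D2:**
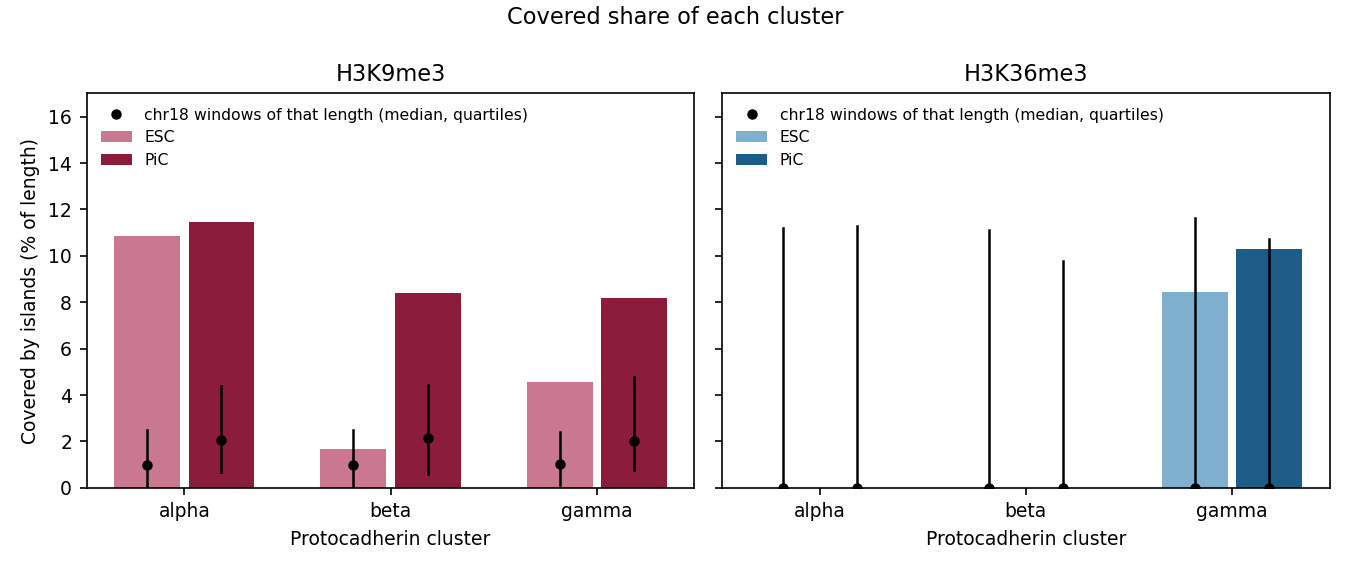
Bars give the percent of each cluster's length under islands, for H3K9me3 on the left and H3K36me3 on the right, in ESCs (pale) and PiCs (dark), with 1 library per bar. Black points and lines are the median and quartiles of chromosome 18 windows as long as the cluster, with H3K9me3 in beta at 1.67% and 8.42% and in alpha at 10.8% and 11.5%.

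In ESCs the alpha cluster carried the densest run of H3K9me3 islands in the span. It held 11 islands of 1.4 to 5.4 kb. Of these, 8 started within 50 kb, between 37107001 and 37152001. This count was made after the islands were seen. No stretch of that length on the autosomes held more, 10 of 17697 autosomal islands opened one with 8, and outside the span the highest on chromosome 18 was 7. The island with the most tags in this run lay at 37148001 to 37150400 and had 166 tags, 69.2 per kb, a density above 98.2% of the ESC list. The run also held weak islands, the weakest with 37 tags, more than only 15.4% of the list. With the better-tagged 50% of each list kept, alpha coverage in ESCs fell from 10.8% to 7.77%.

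In PiCs fewer islands lay in this run. The alpha cluster had 9 in all, of 1.0 to 5.6 kb, and no more than 4 started within any 50 kb of the span. Stretches of beta and gamma also reached 4 in PiCs. At least as many were opened by 3127 of 24422 autosomal PiC islands, and the highest elsewhere on chromosome 18 was 7. The ESC islands at 37107001 to 37109800, 37121401 to 37123400 and 37128401 to 37129800 met none of PiCs, and had 38, 39 and 50 tags. Over the strongest ESC island the PiC list had 1 island, from 37148001 to 37152400, with the same start but 134 tags and 30.5 per kb. Relative to the list medians that is 2.72 in ESCs and 0.923 in PiCs. This PiC island also met the ESC island at 37152001 to 37155800 and took in the gap between them, so these densities are over unlike widths. The PiC island at 37134401 to 37137200 likewise met 2 ESC islands.

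Farther into alpha the islands were alike in position and wider in PiCs. The island at 37216801 to 37222200 in ESCs held 135 tags, and that of PiCs had the same start, an end at 37222400 and 249 tags. Next, 37233201 to 37235000 (85 tags) was met by 37232001 to 37235400 (132 tags), and 37274801 to 37278400 (62 tags) by 37273601 to 37278400 (156 tags). Islands without a counterpart in ESCs were at 37094201 to 37096400 (63 tags) and 37209201 to 37213200 (110 tags). Past 37278400 no list had an island for 107.6 kb, a stretch that takes in the end of alpha and was the widest empty stretch of the span when all 4 lists were joined. Alpha as a whole held 56.6 of every 100000 H3K9me3 tags in ESCs and 28.6 in PiCs.

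Wide H3K9me3 islands flanked alpha on both sides. On the near side, where Zmat2 is the closest other protein-coding gene in the RefSeq order, an island crossed the edge of the span. It ran from 37038001 to 37058200 in ESCs (20.2 kb, 778 tags) and from 37021401 to 37058400 in PiCs (37 kb, 2072 tags). It had the most tags of all H3K9me3 islands touching the span. Nearer to alpha, an island at 37071801 to 37077600 (5.8 kb, 284 tags) was found in PiCs alone. The 40 kb before alpha were covered to 22.5% in ESCs and 49.5% in PiCs. Between alpha and beta, ESCs had islands at 37386201 to 37388600 (103 tags), 37389601 to 37398400 (142 tags) and 37399601 to 37407000 (142 tags). PiCs had a pair over the same ground, at 37386001 to 37396400 (420 tags) and 37401401 to 37412400 (397 tags). These 70 kb were covered to 26.6% in ESCs and 30.6% in PiCs, more than any of the 3 clusters.

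Beta had 2 H3K9me3 islands in ESCs and 6 in PiCs. In ESCs they lay at 37526801 to 37527000 (24 tags) and 37622001 to 37625800 (92 tags), and both met an island of PiCs. The first was a single 200 bp window with identical edges in both conditions. It had 120 tags per kb for ESCs against 210 for PiCs, which is 4.71 and 6.36 times the list medians. In tags it exceeded only 0.677% of the ESC list and 4.22% of the PiC list, so its high density comes with its small width. Such single-window islands made up 0.303% of the ESC list and 0.224% of the PiC list, with medians of 23.5 and 28.5 tags. A further one, at 37524401 to 37524600 with 32 tags, was found in PiCs alone, 2.2 kb from the first. The widest island of beta, 9.4 kb from 37535801 to 37545200 with 304 tags, also belonged to PiCs alone, as did those at 37473401 to 37475800 (68 tags) and 37519601 to 37522800 (90 tags).

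In the stretch called gamma, H3K9me3 coverage differed between conditions by more than 1.5 times before its first H3K36me3 island and by less after it. This split was chosen after the values were seen. Of the 1 Mb windows of chromosome 18 covered in both conditions, 80.0% were 1.5 times or more higher in PiCs. Stretches as short as these were not compared. Before the first H3K36me3 island, over 127.8 kb, H3K9me3 covered 3.13% in ESCs, with 1 island, and 13.8% in PiCs, with 5. The ESC island at 37715001 to 37719000 (84 tags) matched 37714601 to 37719200 in PiCs (185 tags). The PiC islands without a counterpart lay at 37689201 to 37691200 (143 tags, 71.5 per kb, denser than 97.7% of the PiC list), 37692201 to 37698000 (197 tags), 37709401 to 37712600 (124 tags) and 37753401 to 37755400 (62 tags). From the start of beta to that point, 377.8 kb in all, ESCs had 3 H3K9me3 islands and PiCs 11, and coverage was 2.12% and 10.0%. The ratio of island numbers there was 3.67, with an interval from 0.969 to 20.5.

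After the first H3K36me3 island, over 197.2 kb, H3K9me3 coverage was 5.58% for ESCs (204 tags) and 4.77% for PiCs (239 tags), a PiC to ESC ratio of 0.855. The 5 ESC islands were sparse, with 34 to 59 tags each and 0.679 to 0.773 times the list median. They lay at 37855801 to 37857600, 37881001 to 37883000, 37906801 to 37909000, 37925801 to 37927800 and 37965601 to 37968600. The second of them met a PiC island, at 37881001 to 37884800 (91 tags). The first and the third had PiC islands 3.4 and 3.6 kb away, at 37861001 to 37863400 (91 tags) and 37912601 to 37915800 (57 tags). No PiC H3K9me3 island lay beyond 37915800, a stretch of 104.2 kb to the end of the span.

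**Figure D3:**
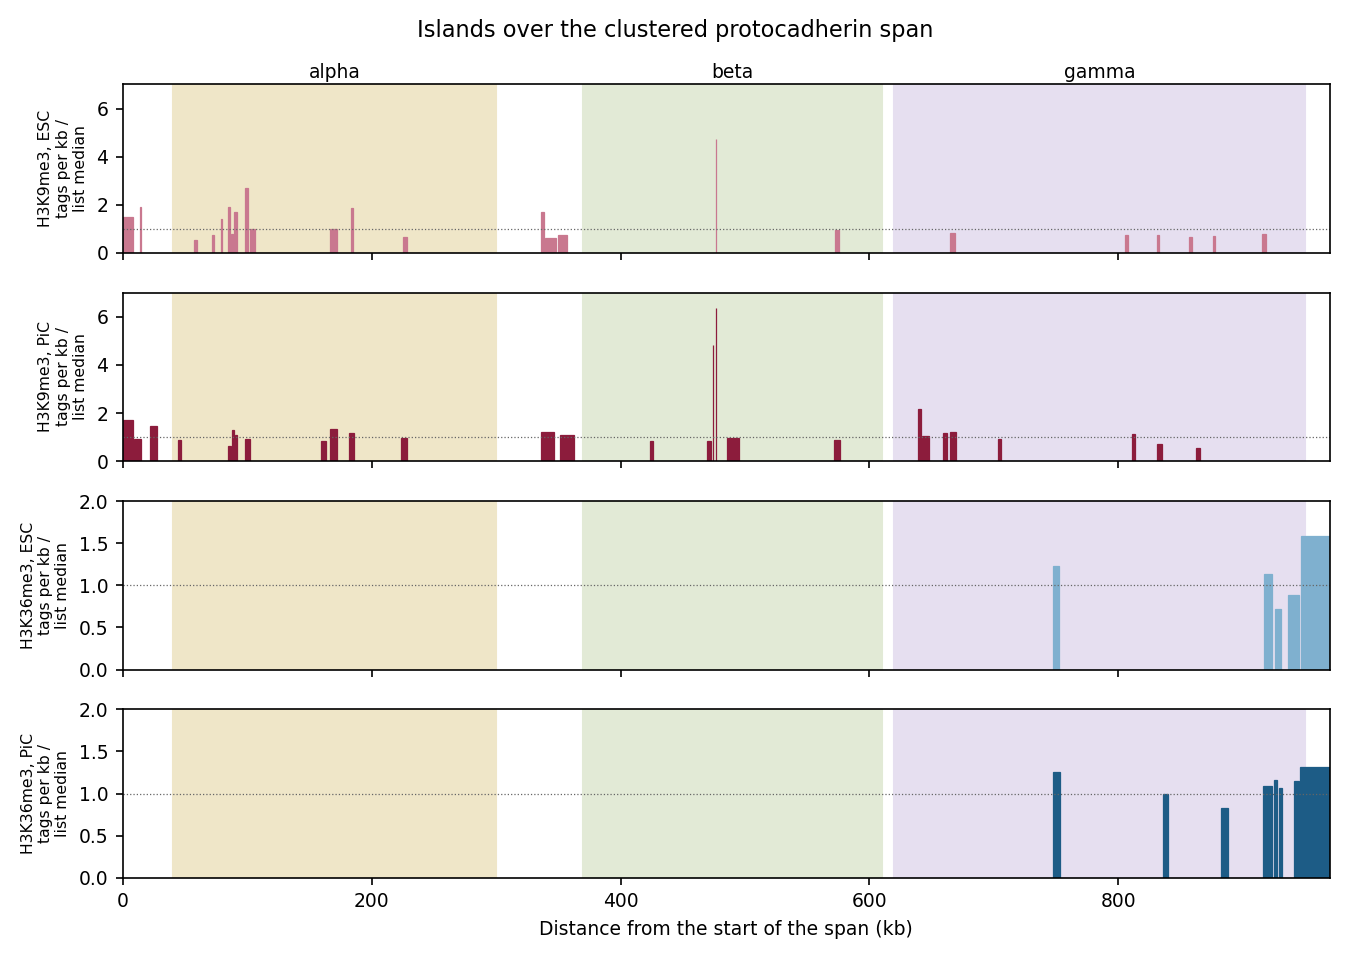
Each block is an island, placed by its distance from the start of the span in kb (horizontal axis) and as high as its tags per kb divided by the median of its list (vertical axis, dotted line at 1, with different ranges for the 2 marks). Shaded bands are the alpha, beta and gamma stretches, and the H3K36me3 lists are empty until 747.8 kb into the span.

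H3K36me3 was found at the far end of gamma and at a separate site within that stretch. The first 747.8 kb of the span held no H3K36me3 island in either condition. The separate site had the same start in both lists, from 37797801 to 37802600 in ESCs (421 tags) and to 37802800 in PiCs (306 tags), at 1.23 and 1.25 times the list medians. The constant exons shared by gamma transcripts are at the downstream end of that cluster. Towards that end ESCs had islands at 37967401 to 37973600 (504 tags), 37976001 to 37981000 (256 tags) and 37986601 to 37995200 (542 tags). PiCs had 4 there, at 37966401 to 37973600 (386 tags), 37975401 to 37977800 (136 tags), 37979401 to 37982000 (135 tags) and 37991401 to 37995200 (213 tags). The third ESC island was thus covered to 44.2% in PiCs, and the second met 2 narrower ones.

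PiCs had 2 further H3K36me3 islands in gamma that met none of ESCs, at 37886201 to 37889600 (165 tags) and 37932401 to 37938400 (244 tags), 77.8 and 29 kb from the nearest ESC island. They stood at 0.992 and 0.831 times the list median, with more tags than 17.8% and 32.9% of the PiC list. Of the 8 PiC H3K36me3 islands touching the span, 75% met one of ESCs, against 79.7% of the whole list. Past gamma an island crossed the far edge of the span, from 37996801 to 38077200 in ESCs (80.4 kb, 9123 tags) and from 37996401 to 38037000 in PiCs (40.6 kb, 2623 tags). The ESC island met 4 PiC islands, the others lying beyond the span, and 93.0% of it was covered in PiCs. Diaph1 follows Pcdhgc5 in the RefSeq order of protein-coding genes. Without the sequence outside the clusters, from the start of alpha to the end of gamma, H3K36me3 covered 3.05% in ESCs and 3.74% in PiCs.

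The marks met at 1 place in the span. In ESCs the H3K9me3 island at 37965601 to 37968600 overlapped the H3K36me3 island at 37967401 to 37973600 by 1.2 kb, 0.124% of the span. In PiCs there was no H3K9me3 island there, and no base of the span lay under both marks. Neither mark covered 87.5% of the span in ESCs and 82.2% in PiCs. The 0.5 Mb on the near side of the span carried more of both marks, with 13% under H3K9me3 and 44.9% under H3K36me3 in ESCs, and 16.4% and 43.4% in PiCs. The 0.5 Mb on the far side had 0.52% and 32.2% in ESCs and 0.68% and 34.8% in PiCs.

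Compared with other stretches that lack H3K36me3, the one that holds alpha and beta had high H3K9me3. This comparison was added after the values were seen. The stretch ran from 36959401 to 37797800 in ESCs and from 36959001 in PiCs, so that it began outside the span. Its H3K9me3 coverage was 14.1% for ESCs and 22.0% for PiCs. The other H3K36me3-free stretches of at least 500 kb on chromosome 18 numbered 41 in ESCs, with a median of 1.09% and a highest value of 9.49%, and 48 in PiCs, with 2.46% and 17.3%. On all autosomes 2 of 939 others were higher in ESCs and 7 of 1005 in PiCs. Much of this came from the wide islands before alpha. From the start of alpha onwards the shares were 7.74% and 12.6%, with 25 and 53 of the other autosomal stretches higher.

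**Figure D4:**
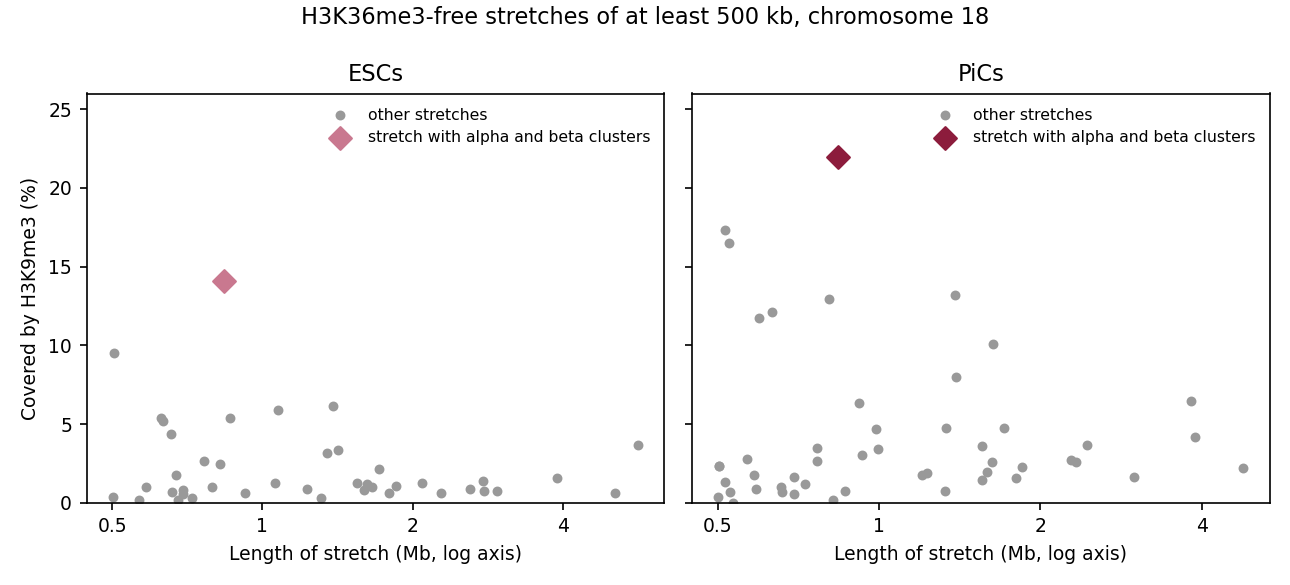
Each point is a stretch of chromosome 18 of at least 500 kb without an H3K36me3 island, placed by its length in Mb (horizontal log axis) and the percent of it under H3K9me3 (vertical axis), in ESCs on the left and PiCs on the right. The diamond is the stretch with the alpha and beta clusters, at 14.1% and 22.0%, above all other stretches shown.

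The shares of islands met in the other condition had wide intervals in the span, and each held the value of the whole list. For ESC H3K9me3 the rest of chromosome 18, at 88.3%, lay above the interval of the span. Of the 24 ESC H3K9me3 islands, 17 met a PiC island (70.8%, interval 48.9 to 87.4), against 79.3% of the whole list. Of the 28 PiC islands, 15 met an ESC island (53.6%, 33.9 to 72.5), against 54.5%. All 5 ESC H3K36me3 islands were met (interval from 47.8), against 89.7% of the list, and 6 of the 8 PiC ones (34.9 to 96.8), against 79.7%. In the 18 meetings of H3K9me3 islands the PiC island was the wider in 15, against 72.7% of all meetings of the lists, and the median width ratio was 1.41, against 1.4. In the 6 meetings of H3K36me3 islands that both touched the span the PiC island was the narrower in 4, against 63.6% of all meetings. By cluster, 8 of 11 ESC H3K9me3 islands in alpha, both in beta and 2 of 6 in gamma met a PiC island. Of the PiC islands, 7 of 9 in alpha, 2 of 6 in beta and 2 of 8 in gamma met one of ESCs.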

How the data were processed

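The deposited files list islands called with SICER on mm9, per the submitters' processing notes, 1 list per library. SICER joins enriched windows into broad regions. Its version and thresholds, the aligner, the handling of duplicates and the use of the input are each not given in the sources used for this work. The deposited whole number of each island was read as a tag count, not scaled by the authors as far as the values show. Positions are given 1-based.

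Islands were clipped to the span and their tags shared out evenly over their length. Shares carry exact (Clopper-Pearson) 95% binomial intervals, which cover counting error only. Islands were assigned to clusters by midpoint, and windows lay between the first and last island of the chromosome. Alternatives were shorter lists, joined islands, a minimum width of 1 kb, other edges and other windows. Functions were tested on simulated lists. Python 3.11.15, numpy 2.4.6, pandas 2.3.3, scipy 1.17.1 and matplotlib 3.10.9 were used. The members, edges and comparisons were chosen with earlier results of these data known. Regions named were, per cluster and list, the 3 islands with the most tags and the 3 widest, those without a counterpart and the widest empty stretches, and others were named after their values were seen. No promoter sequence was printed.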

Additional observations from a re-analysis of the deposited data

How the results depend on the processing

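No paired analysis was possible because there is 1 library per group, and none could be left out. With lists of equal size (the longer list of each mark shortened to the islands with the most tags) several PiC to ESC ratios changed side of 1: that of H3K9me3 island numbers in the span was 0.833, that of H3K36me3 coverage in the span 0.954, that of H3K9me3 coverage in alpha 0.787 and that of H3K36me3 coverage in gamma 0.921. The ratio of H3K9me3 coverage was then 1.40 in the span and 1.45 in gamma, both under the fold of 1.5, and 4.95 in beta. For the span it was also under that fold from the start of alpha to the end of gamma (1.495). Equal lists also gave PiCs 10.8% H3K9me3 and 4.70% H3K36me3 coverage of the span, 4.08 and 2.76 tags per kb, and 5 H3K36me3 islands. Keeping only the better-tagged 50% of every list left 14 and 16 H3K9me3 islands in ESCs and PiCs and 1 H3K36me3 island in each, with coverage of 5.96%, 9.61%, 2.39% and 2.43% and with 1.68, 3.73, 2.71 and 1.57 tags per kb. The H3K36me3 island left was in each list the one that crossed the far edge of the span. H3K36me3 coverage of gamma was then 0.970% in ESCs and 1.09% in PiCs. The shared portion of PiC H3K36me3 islands was then 100%, which rests on the 1 island left. The island numbers, coverage and tags per kb are lower by construction, since islands were removed. Joining islands over 2 kb gave 5 H3K36me3 islands in PiCs. From the start of alpha to the end of gamma, coverage was 10.8% for H3K9me3 in PiCs and 3.05% and 3.74% for H3K36me3 in ESCs and PiCs. The share of windows below the span in H3K9me3 coverage ran from 95.2% to 97.6% in ESCs and from 92.9% to 96.0% in PiCs over the settings tried, those of other grids and all autosomes included. The ESC H3K9me3 islands of gamma past its first H3K36me3 island held 34 to 59 tags, in a list whose lowest island held 18, and how depth bears on them was not tested.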
